A study of Mus musculus with 167 samples.

Results

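The libraries described here are mouse embryonic fibroblasts 6 and 3 days after lentiviral delivery of the transcription factors Spib, Irf8 and Ikzf2 (the SII cocktail), sorted as live cells positive for a yellow fluorescent reporter and for CD45, the pan-leukocyte surface protein. They were chosen by their labels, as the 3 day 6 and the 4 day 3 libraries of the hCD2.SII YFP+CD45+ sort, 7 libraries beside 160 others in the series. Both groups carried the same alleles, heterozygous hCD2(Cre/WT) and Rosa26(YFP/WT) on C57BL/6, and both received all of the cocktail; by their labels they differed in day alone. In this line Cre is under control of human CD2 sequences, which in the mouse mark lymphoid cells and plasmacytoid dendritic cells, and YFP stays on in a cell and its progeny once Cre has acted. The labels do not say which libraries came from separate cultures, so p-values measure the spread between these libraries only. The same line sorted on CD45 alone (4 libraries at day 6, 5 at day 3) or on YFP alone (4 and 5), the same gate at day 9 (3), the untransduced fibroblasts (4), splenic plasmacytoid dendritic cells (5) and the same cocktail in the C9a line (4 and 4) are used for comparison.

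Plasmacytoid dendritic cells are blood-borne sentinels that sense viral nucleic acids through endosomal Toll-like receptors and release type I interferon. Spi-B, an ETS-family factor, and IRF8 take part in their development, and the 2 families can bind DNA together at composite ETS-IRF elements; Ikzf2 (Helios) belongs to the Ikaros zinc finger family. Dendritic cells and macrophages read their surroundings through paired surface receptors, C-type lectins and immunoglobulin-like proteins, in which inhibitory members signal through their own tails and activating members depend on the adaptors DAP12 (Tyrobp) or the Fc receptor gamma chain (Fcer1g).

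Day 6 libraries held 10799213, 10026736 and 5687181 counts, and day 3 libraries 9756715 to 11171193 counts, so the third day 6 library carries the largest counting error. Levels below are counts scaled to 1000000 per library (CPM), and differences are edgeR log2 fold changes of day 6 over day 3 with their standard error. A gene is called, and said to have risen or fallen, where its Benjamini-Hochberg adjusted p is under 0.05 and its change is at least 2-fold. Day 3 replicates 3 and 4 stood apart from replicates 1 and 2, and day 6 replicate 3 from the other day 6 libraries, so results that rest on 1 library are given without it. Between day 3 replicates 3 and 4 the counts differed least (chi-square per degree of freedom 3.12, other day 3 pairs 11.8 to 27.6). Leaving out 1 of this pair keeps the library most like it. These are bulk libraries, in which fewer cells of a type and less RNA per cell cannot be told apart.

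The factors and the sort marker were present in all 7 libraries and were not called. Spib had 127.05, 162.9 and 219.6 CPM at day 6, against 182.1, 172.6, 260.4 and 251.8 CPM at day 3 (log2 fold change -0.41 ± 0.23, edgeR adjusted p = 0.332). Irf8 had 276, 321 and 408 CPM at day 6, against 412, 351, 549 and 576 CPM at day 3 (-0.55 ± 0.21, adjusted p = 0.166), and Ikzf2 averaged 1000 ± 267 CPM at day 6 (SD, n = 3) and 1258 ± 236 CPM at day 3 (SD, n = 4; -0.39 ± 0.21, adjusted p = 0.330). The groups overlapped for each factor; counts cannot tell a factor's delivered copy from its own locus. Ptprc, the CD45 gene, averaged 238 ± 63.8 CPM at day 6 and 249 ± 36.3 CPM at day 3 (-0.12 ± 0.19, adjusted p = 0.763). Of 21 tested pan-leukocyte genes 0 rose and 0 fell, with a median log2 fold change of -0.15, against 0.03 over all tested genes.

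The libraries held fibroblast transcripts beside leukocyte ones at both days, and bulk counts cannot show whether the same cells held both. Fn1 (fibronectin) had 28482, 32281 and 26828 CPM at day 6, against 25114, 22007, 17337 and 17630 CPM at day 3, and was not called (0.45 ± 0.15, adjusted p = 0.116). Of the plasmacytoid dendritic cell markers, Siglech and Ly6d were near 0. Siglech had 2 counts over the 3 day 6 libraries and 1 count over the 4 day 3 libraries. Its median in splenic plasmacytoid dendritic cells was 2478 CPM. Ly6d had 0 counts at both days. Other markers of that list were present: it summed to 674, 719 and 691 CPM at day 6, against 534 to 675 CPM at day 3. Summed over each list, granulocyte markers were at 1.30 to 1.93 CPM at day 6 and 0.577 to 1.54 CPM at day 3, and T and NK cell markers at 2.50 to 2.99 CPM at day 6 and 1.75 to 3.08 CPM at day 3. Of the 7 endothelial markers 1 was tested and 0 called, and their sum did not overlap, at 9.67 to 12.1 CPM at day 6 and 5.26 to 8.28 CPM at day 3. Neural and glial markers summed to 10.17 CPM or less at day 6 and 11.45 CPM or more at day 3. Muscle markers split the libraries, at 6.30, 6.58 and 17.2 CPM at day 6, against 46.01, 56.99, 6.54 and 7.40 CPM at day 3, and 0 of 3 tested was called. The part of such cells in the results was not tested.

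Among 15810 tested genes, 349 rose (2.21%) and 177 fell (1.12%) at day 6. The 349 were mostly short non-coding RNAs and identifiers with no entry in the annotation used (GENCODE M21); of 13085 protein-coding genes 1.01% rose and 1.3% fell. Groups did not overlap for 22.4% of tested genes, in either direction. Without day 6 replicate 2, 207 rose and 49 fell; without day 3 replicate 3, 208 and 74; without day 3 replicate 4, 209 and 77. The 58 called genes followed through each omission came from gene lists and the largest changes, so they do not represent all called genes. Of the 58, 23 stayed called in all omissions. These hold 6 myeloid receptor genes (Cd209a, Clec12a, Clec5a, Klra17, Pira2, Sirpb1c), the scavenger receptor Cd36, the replication gene Mcm6, 8 small RNAs (mt-Th, mt-Tk, mt-Tv, mt-Tw, Rnu11, Rnu12, Snora81, Snord22) and 7 other protein-coding genes (Angpt1, Astn1, Clca3a2, Serpinb8, Slitrk4, Trf, Ttyh1).

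**Figure D1:**
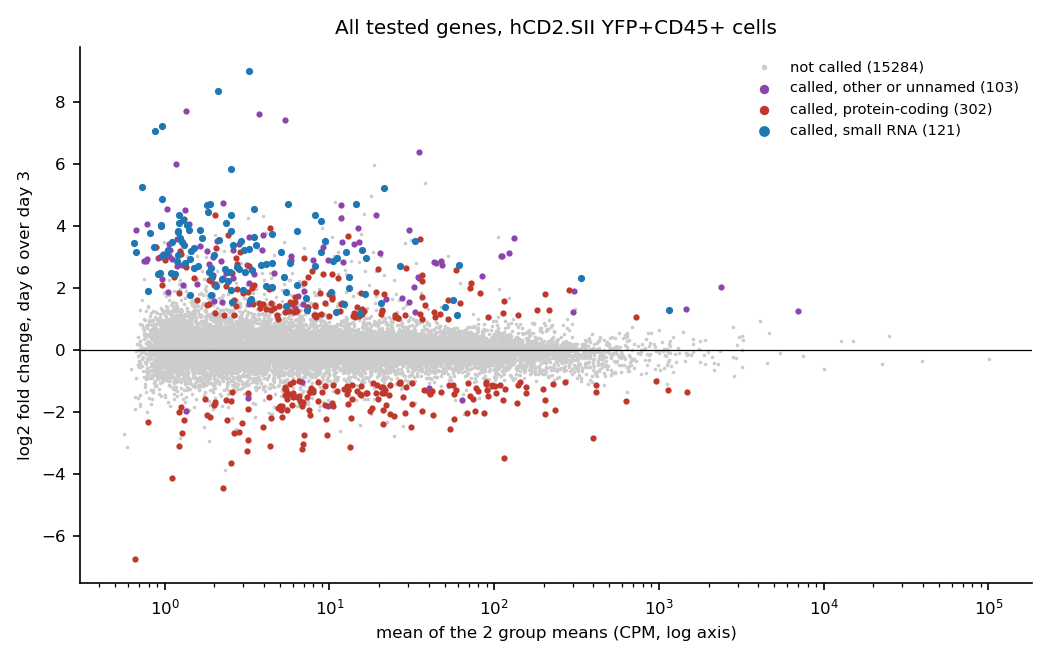
Log2 fold change of day 6 over day 3 (vertical axis) against mean level (horizontal axis, log scale) for each tested gene, with called small RNAs, called protein-coding genes and other called identifiers in colour. Of the 526 called genes 302 are protein-coding, and 15284 genes are not called.

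Several surface receptors of myeloid cells rose at day 6. Of 12 tested genes in a list of 25 myeloid lectins and immunoreceptors, 6 rose and 1 fell, against 2.21% and 1.12% of all tested genes, and the median log2 fold change was 2.05. The 13 members left untested had too few counts for the filter, and a low gene that is high in 1 group passes it more easily. Without any 1 library, 4 to 6 members rose, but in 1 fit over all groups of the line, which shares its spread with the other gates and days, 2 rose and 0 fell.

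Sirpb1c, an activating SIRP-family receptor of the kind that pairs with DAP12, had 18.89, 21.44 and 32.002 CPM at day 6, against 3.04, 2.05, 0.770 and 1.27 CPM at day 3 (3.68 ± 0.39, edgeR adjusted p = 0.00298). Pira2, an activating paired immunoglobulin-like receptor that signals through the Fc receptor gamma chain, had 36.9, 38.8 and 120 CPM at day 6, against 7.07, 4.72, 4.91 and 4.38 CPM at day 3 (3.57 ± 0.48, adjusted p = 0.00895). Its day 6 level was highest in replicate 3, and without that library its log2 fold change was 2.75 ± 0.18. Clec5a, a DAP12-coupled lectin, had 4.17, 3.89 and 6.51 CPM at day 6, against 0.537, 0.615, 0.577 and 0.584 CPM at day 3 (2.97 ± 0.33, adjusted p = 0.00284). The day 6 and day 3 libraries did not overlap for any of these receptors, but this was a condition for picking called members of the lists. Each receptor stayed called without any 1 library. In 1 fit over all groups Clec5a was not called (2.94, adjusted p = 0.0504).

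Lectins of dendritic cells followed. Cd209a, a DC-SIGN family lectin used as a marker of conventional type 2 dendritic cells, had 3.33, 2.69 and 7.56 CPM at day 6, against 0.358, 0.308, 0.577 and 0 CPM at day 3 (3.72 ± 0.65, adjusted p = 0.0134). Clec12a, an inhibitory lectin of dendritic cells and granulocytes, had 56.86, 68.82 and 58.025 CPM at day 6, against 28.5, 28.8, 19.1 and 23.2 CPM at day 3 (1.24 ± 0.15, adjusted p = 0.00395), but was not called in 1 fit over all groups (1.21, adjusted p = 0.151). Klra17 (Ly49Q), an inhibitory receptor characteristic of mouse plasmacytoid dendritic cells, had 11.5, 10.8 and 18.3 CPM at day 6, against 3.13, 3.38, 1.16 and 1.17 CPM at day 3 (2.54 ± 0.41, adjusted p = 0.0105). Klra17 was the 1 gene to rise among 9 tested plasmacytoid dendritic cell markers, of 19 in the list, against 2.21% of all tested genes. The Pir, Sirpb1 and Klra families hold near-identical copies among which the authors' counting could split reads, so a share of these values may belong to a relative.

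The promoters of Cd209a and Pira2 are shown because each holds a string of the kind that ETS factors, alone or with IRF partners, are known to bind. RefSeq (GRCm38.p6) gives Cd209a a start on the minus strand, with the window from 250 bases before to 50 bases after it at chr8:3748935-3749234, and Pira2 one on the minus strand at chr7:3845002-3845301. Capitals mark a match to the ETS-IRF composite element (GGAA, 2 bases of any kind, then GAAA) in Cd209a, on the opposite strand, beginning 9 bases before the start and ending on it, and to the PU.1 and Spi-B type site GAGGAAGT in Pira2, upstream of the start.
Cd209a promoter: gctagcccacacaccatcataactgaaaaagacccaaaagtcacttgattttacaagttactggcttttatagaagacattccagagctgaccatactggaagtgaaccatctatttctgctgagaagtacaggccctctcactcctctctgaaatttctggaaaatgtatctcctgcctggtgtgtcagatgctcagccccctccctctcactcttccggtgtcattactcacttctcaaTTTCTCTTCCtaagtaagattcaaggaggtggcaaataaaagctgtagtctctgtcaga
Pira2 promoter: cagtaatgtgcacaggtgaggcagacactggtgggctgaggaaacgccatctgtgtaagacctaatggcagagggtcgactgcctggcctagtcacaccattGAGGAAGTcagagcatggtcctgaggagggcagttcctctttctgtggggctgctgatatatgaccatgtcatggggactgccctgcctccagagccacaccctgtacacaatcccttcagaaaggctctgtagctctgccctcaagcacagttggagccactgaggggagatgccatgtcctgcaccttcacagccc
The motifs share the letters GGAA and were searched on both strands in 32851 promoters, of which 2.72% held the composite and 3.2% the ETS site. Among the promoters of 97 protein-coding genes that rose, 2.61% held the composite and 6.09% the ETS site. Among the promoters of protein-coding genes that fell, 2.61% held the composite and 4.58% the ETS site. The windows of Clec12a, Clec5a, Fcgr3, Klra17, Mpeg1, Sirpb1a, Sirpb1c and Tlr2 held neither string. A match is a run of letters and not a measured binding site.

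Other receptors of the list depended more on single libraries. Fcgr3, an IgG receptor, had 77.6, 97.5 and 181 CPM at day 6, against 40.3, 32.5, 14.3 and 15.4 CPM at day 3 (2.16 ± 0.46, adjusted p = 0.0432). Its call was lost in 6 of 7 omissions. Sirpb1a was low, at 1.58 to 1.85 CPM at day 6 and 0 to 0.448 CPM at day 3 (3.00 ± 0.63, adjusted p = 0.0262), and lost its call without day 3 replicate 2, day 3 replicate 4, day 6 replicate 1 or day 6 replicate 2. The inhibitory IgG receptor Fcgr2b fell, with 1.30, 1.40 and 1.06 CPM at day 6, against 2.78, 2.15, 5.10 and 5.16 CPM at day 3 (-1.64 ± 0.40, adjusted p = 0.0482), a call lost in 6 of 7 omissions. Pirb, the inhibitory partner of Pira2, was the most abundant uncalled member, at 351 ± 110.7 CPM at day 6 (SD, n = 3) and 205 ± 29.7 CPM at day 3 (SD, n = 4; 0.72 ± 0.21, adjusted p = 0.0950).

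**Figure D2:**
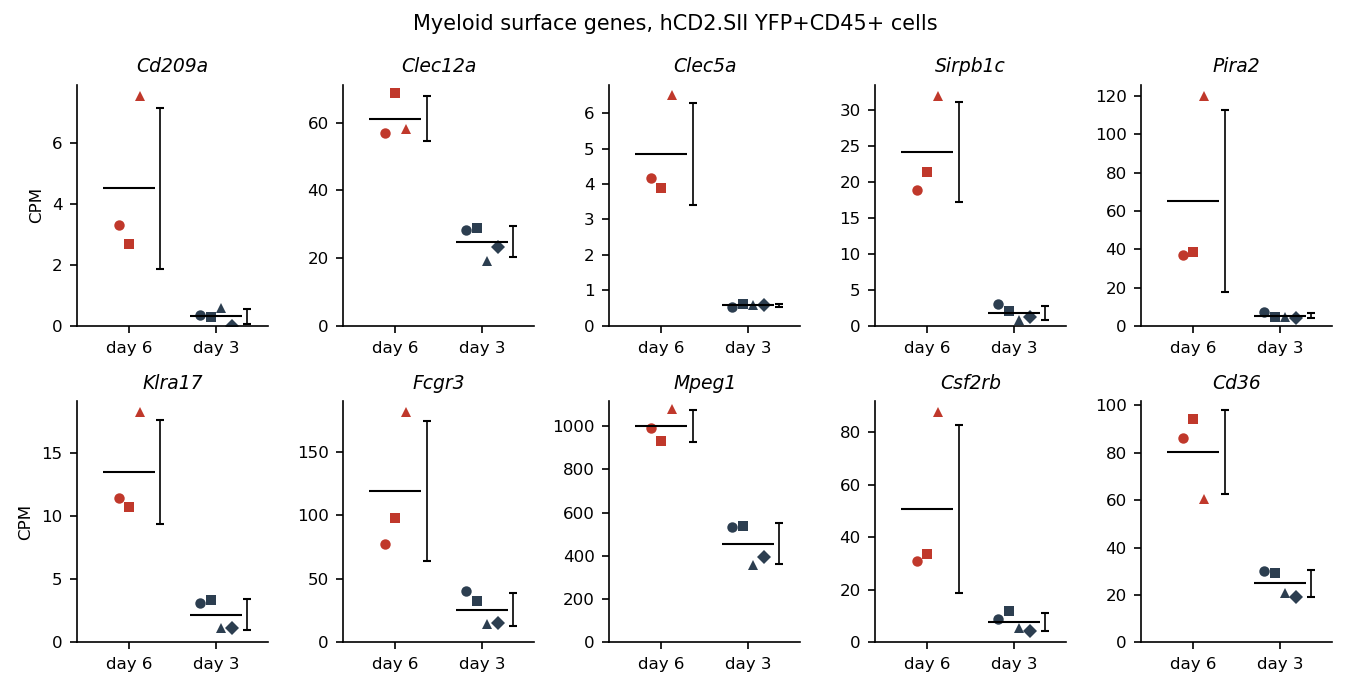
Level of myeloid receptor and macrophage genes in each library (vertical axis, CPM), day 6 left and day 3 right in each panel, with the mean as a line and the SD as a bar. Pira2 sits at 36.9 to 120 CPM at day 6 and 4.38 to 7.07 CPM at day 3, with no overlap.

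The adaptors that carry the signal of the activating receptors were near 0 at both days. Tyrobp had 8 counts over the 3 day 6 libraries and 17 over the 4 day 3 libraries, against a median of 405 CPM in splenic plasmacytoid dendritic cells. Fcer1g had 9 counts at day 6 and 10 at day 3, against a median of 66.2 CPM in those cells. Both stayed under the filter and have no test.

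Macrophage and monocyte genes gave 4 that rose and 0 that fell of 12 tested, of 22 in the list, against 2.21% and 1.12% of all tested genes, and their summed level was 1312 to 1517 CPM at day 6 and 437 to 715 CPM at day 3. Mpeg1 (perforin-2) made up most of it, with 989, 931 and 1079 CPM at day 6, against 535, 537, 358 and 393 CPM at day 3 (1.08 ± 0.16, adjusted p = 0.00722). Without day 3 replicate 3 or day 6 replicate 3 its log2 fold change was 0.96 and 0.99, under the 2-fold threshold. Fcgr3 is also in this list, and Cd14, the lipopolysaccharide co-receptor, and Msr1, a scavenger receptor, were the other risers at mean levels of 5.07 and 5.63 CPM at day 6, against 1.32 and 1.88 CPM at day 3. The count of 4 was 0 without day 3 replicate 3, 1 without day 3 replicate 4 or day 6 replicate 1, and 2 without day 6 replicate 2 or replicate 3. C1qa, a complement gene of tissue macrophages, had 4 counts over the day 6 libraries and 2 over the day 3 libraries. The high-affinity IgG receptor Fcgr1 was untested and came from 1 library, with 24.4 CPM in day 6 replicate 3, 0.741 and 0.299 CPM in the other day 6 libraries, and at most 0.195 CPM at day 3.

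Genes of conventional dendritic cells moved in part. Of 9 tested type 2 markers 2 rose, Cd209a and Clec12a, and of 10 tested type 1 markers 0 rose and 1 fell, against 2.21% and 1.12% of all tested genes. The type 2 count was 1 in 1 fit over all groups, and 1 type 1 marker rose without day 6 replicate 1 or 3, with DESeq2, with no low-count filter or in 1 fit over all groups. The faller was Cd24a, a glycosylated adhesion protein, with 53.34, 45.48 and 103.9 CPM at day 6, against 163.4, 165.01, 259.0 and 250.2 CPM at day 3 (-1.69 ± 0.35, adjusted p = 0.0331), and its call was lost in 5 of 7 omissions. Itgam (CD11b) had 112.8, 96.9 and 220.0 CPM at day 6, against 69.4, 66.5, 61.8 and 67.9 CPM at day 3 and was not called (1.05 ± 0.27, adjusted p = 0.0650), but was without day 6 replicate 2 (1.29, adjusted p = 0.0463). Xcr1, the type 1 chemokine receptor, had 8 counts at day 6 and 12 at day 3. Cd83, a maturation marker, rose to 6.36 ± 0.81 CPM at day 6 (SD, n = 3), against 2.47 ± 0.63 CPM at day 3 (SD, n = 4; 1.30 ± 0.26, adjusted p = 0.0230), a call lost without day 3 replicate 3, day 3 replicate 4 or day 6 replicate 2.

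Antigen presentation and interferon genes gave few calls, where 2.21% of all tested genes rose and 1.12% fell. Cd74, the invariant chain of class II, had 54.17, 53.96 and 81.59 CPM at day 6, against 114.2, 100.6, 153.6 and 156.03 CPM at day 3 (-1.11 ± 0.22, adjusted p = 0.0247) and was the 1 gene to fall of 6 tested class II genes. Its call was lost without day 3 replicate 3, day 3 replicate 4, day 6 replicate 1 or day 6 replicate 2. H2-Aa, a class II chain, had 6 counts at day 6 and 4 at day 3, against a median of 895 CPM in splenic plasmacytoid dendritic cells. None of 20 class I genes and none of 36 interferon-stimulated genes was called, with medians of -0.07 and 0.08. None of 17 tested cytokines and chemokines was called either, though 1 rose without day 3 replicate 2 or with DESeq2, 2 without day 6 replicate 3 or in 1 fit over all groups, and 3 with no low-count filter; 16 of them had a log2 fold change above 0, with a median of 0.44.

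Innate sensors and growth factor receptors gave 1 or 2 risers per list, where 2.21% of all tested genes rose. Tlr2, the receptor for bacterial lipoproteins, had 16.02, 44.78 and 40.27 CPM at day 6, against 8.41, 10.2, 11.2 and 6.62 CPM at day 3 (1.82 ± 0.34, adjusted p = 0.0219). With Cd14 it made 2 that rose of 13 tested Toll-like receptor genes, and it lost its call in 5 of 7 omissions; neither was called without day 3 replicate 3 or 4. Tlr7, an endosomal receptor of plasmacytoid dendritic cells, had 5 counts at day 6 and 6 at day 3. Csf2rb, the shared beta chain of the GM-CSF, IL-3 and IL-5 receptors, had 30.8, 33.6 and 87.6 CPM at day 6, against 8.95, 12.1, 5.58 and 4.28 CPM at day 3 (2.65 ± 0.50, adjusted p = 0.0266). It was the 1 of 11 tested growth factor receptors to rise, and lost its call without day 3 replicate 1, 3 or 4 or day 6 replicate 2; without day 6 replicate 1 or 3 the list had 2 risers.

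Of the lipid-handling genes 1 rose and 1 fell, where 2.21% of all tested genes rose and 1.12% fell. Cd36, a scavenger receptor that takes up fatty acids, had 86.3, 94.05 and 60.5 CPM at day 6, against 30.2, 29.4, 20.8 and 19.2 CPM at day 3 (1.63 ± 0.20, adjusted p = 0.00395). Lpl, the lipase that frees fatty acids from lipoproteins, had 97.8, 97.3 and 48.4 CPM at day 6, against 247, 217, 403 and 437 CPM at day 3 (-2.07 ± 0.35, adjusted p = 0.0175), and lost its call without day 3 replicate 3 or day 6 replicate 2. These were the only calls among 14 tested genes of the list. Egr1, the 1 immediate early gene of 13 that rose, averaged 49.8 ± 18.03 CPM at day 6 (SD, n = 3) and 21.2 ± 1.74 CPM at day 3 (SD, n = 4; 1.17 ± 0.21, adjusted p = 0.0160), and lost its call without day 3 replicate 3 or day 6 replicate 2, while 3 of the list rose without day 6 replicate 3.

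Transcription factors were mostly uncalled: of 26 tested blood-lineage factors 0 rose and 1 fell, against 2.21% and 1.12% of all tested genes. The list had 1 riser without day 3 replicate 2 or day 6 replicate 2. The faller was Ikzf3 (Aiolos), an Ikaros-family factor, at 6.19 ± 2.26 CPM at day 6 (SD, n = 3) and 19.7 ± 8.72 CPM at day 3 (SD, n = 4; -1.73 ± 0.41, adjusted p = 0.0498), and 5 omissions ended its call. Prdm1 (Blimp-1), a repressor used in another cocktail of the study, had 20.6, 20.6 and 13.0 CPM at day 6, against 31.5, 32.6, 46.2 and 49.5 CPM at day 3 (-1.20 ± 0.22, adjusted p = 0.0181). Its call was lost without day 3 replicate 3 or day 6 replicate 2.

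Genes of the cell cycle were lower at day 6. All 20 genes of the G2 and M phase list had a log2 fold change below 0, with a median of -1.68, and 7 fell, against 1.12% of all tested genes. All 20 S phase genes were below 0 as well, with a median of -0.83, and 6 fell. Summed, the G2 and M phase genes reached 223.7, 127.5 and 50.6 CPM at day 6, against 359, 346, 520 and 516 CPM at day 3, and the S phase genes 274, 224 and 174 CPM at day 6, against 391.5, 355.4, 398.7 and 403.2 CPM at day 3. Neither sum overlapped between the days.

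Mcm6, a subunit of the replicative helicase, had 16.9, 12.1 and 8.79 CPM at day 6, against 35.001, 29.5, 33.8 and 35.8 CPM at day 3 (-1.46 ± 0.20, adjusted p = 0.00624), and was called without any 1 library. Top2a, the topoisomerase that untangles replicated chromosomes, had 24.2, 14.8 and 6.33 CPM at day 6, against 52.5, 46.2, 62.2 and 70.9 CPM at day 3 (-1.97 ± 0.39, adjusted p = 0.0289). Ccna2 (cyclin A2) had 4.07, 2.79 and 1.23 CPM at day 6, against 7.79, 8.20, 10.8 and 9.83 CPM at day 3 (-1.76 ± 0.33, adjusted p = 0.0173). For these genes all day 6 libraries lay below all day 3 libraries, which was a condition for picking called members of the lists. Top2a lost its call without any 1 day 3 library or day 6 replicate 2. Ccna2 lost its call without day 3 replicate 3, day 3 replicate 4 or day 6 replicate 2. Mki67, the proliferation antigen Ki-67, was not called (-2.05 ± 0.52, adjusted p = 0.0707), with 45.6, 22.8 and 10.0 CPM at day 6, against 72.7, 76.2, 129.8 and 141.4 CPM at day 3. The G2 and M phase count was 0 without day 3 replicate 3, day 3 replicate 4 or day 6 replicate 2, 2 without day 3 replicate 2, 4 without day 3 replicate 1 and 16 without day 6 replicate 1. With DESeq2 it was 18, with no low-count filter 13 and in 1 fit over all groups 2. The S phase count was 1 without day 6 replicate 2 and 3 without each day 3 library.

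**Figure D3:**
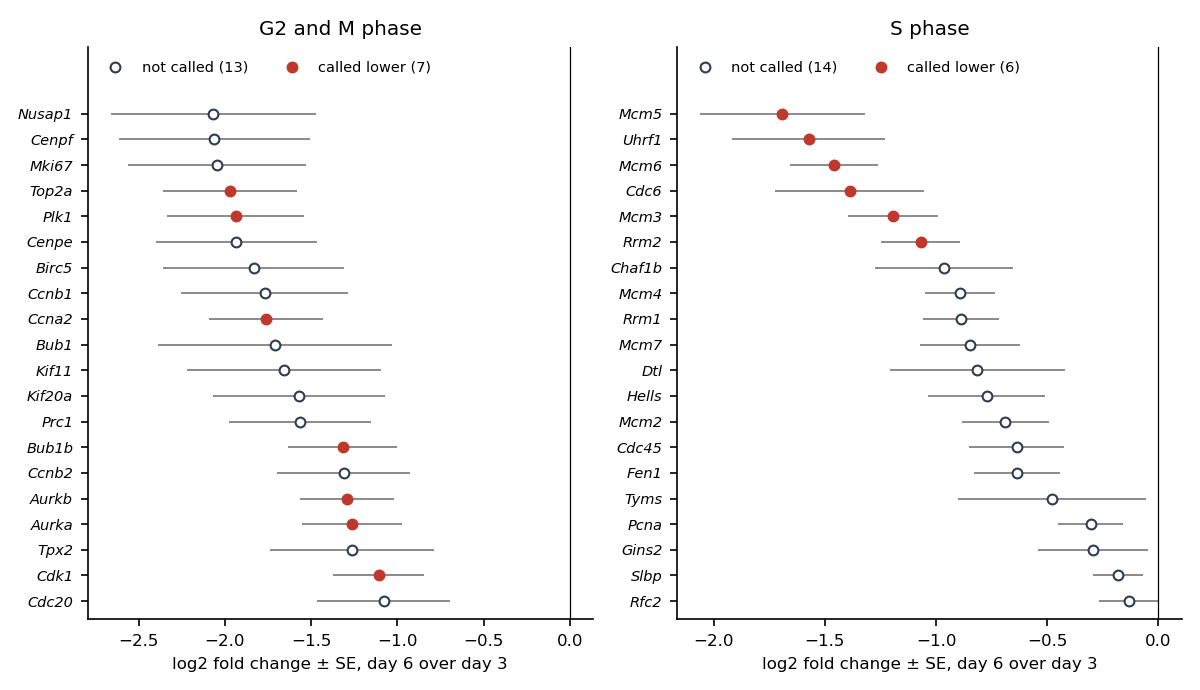
Log2 fold change of day 6 over day 3 (horizontal axis, with standard error) for each G2 and M phase gene and each S phase gene, filled where called. Every gene of both lists lies below 0, and 7 of the G2 and M phase genes and 6 of the S phase genes are called lower.

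Fibroblast genes gave 1 call among 34 tested, a fall, where 1.12% of all tested genes fell. Their median was -0.31 (without day 6 replicate 3, 2 rose and 2 fell). Col1a2, a collagen I chain, had 1178, 954 and 486 CPM at day 6, against 2131, 1926, 2163 and 2190 CPM at day 3 (-1.33 ± 0.26, adjusted p = 0.0226), and lost its call without day 3 replicate 3, day 3 replicate 4 or day 6 replicate 2. None of 15 contractile genes was called, with a median of -0.63. The steepest falls among genes of at least 10 CPM included Tgfbi, a matrix protein induced by TGF-beta, with 27.7, 25.2 and 4.92 CPM at day 6, against 110.1, 101.1, 311 and 316 CPM at day 3 (-3.48 ± 0.72, adjusted p = 0.0397). Igfbp2, a binding protein of insulin-like growth factors, had 97.3, 93.8 and 115.9 CPM at day 6, against 344, 356, 1022 and 1069 CPM at day 3 (-2.83 ± 0.52, adjusted p = 0.0262). Both were higher in day 3 replicates 3 and 4 than in day 3 replicates 1 and 2, and each lost its call in 5 of 7 omissions.

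Beside Mcm6, the falls among the genes followed that held through every omission were those of Slitrk4, Clca3a2 and Astn1, a neuronal guidance protein. Slitrk4, a synaptic adhesion protein, had 2.22, 3.59 and 1.93 CPM at day 6, against 13.07, 13.02, 19.44 and 21.999 CPM at day 3 (-2.74 ± 0.30, adjusted p = 0.00267). Clca3a2, of the chloride channel accessory family, had 21.8, 14.6 and 12.3 CPM at day 6, against 81.5, 81.2, 102.01 and 101.9 CPM at day 3 (-2.55 ± 0.21, adjusted p = 0.000758). In untransduced fibroblasts Slitrk4 stood at 0.156 ± 0.0821 CPM (SD, n = 4), below both days. Among the protein-coding genes with the steepest rises, chosen after their values were seen, Ttyh1, a chloride channel family member, rose by 2.95, Trf (transferrin) by 2.33 and the vessel growth factor Angpt1 by 2.16 on the log2 scale, each through every omission.

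The largest rises were in small RNAs. Of 17 tested mitochondrial tRNAs 15 rose, with a median log2 fold change of 3.79, of 22 tested small nuclear RNAs 21 rose, with a median of 3.43, and 73 small nucleolar and Cajal body RNAs rose, 61.9% of those tested, with a median of 2.29. Mitochondrial tRNAs decode the few messages made inside mitochondria, small nuclear RNAs build the spliceosome, and small nucleolar RNAs guide the modification of ribosomal RNA. Without any 1 library 12 to 14 tRNAs were called, and 47 to 78 small nucleolar and Cajal body RNAs, fewest without day 3 replicate 3 (47) and day 6 replicate 1 (48). Sequences of the 4 tRNAs among the 10 highest changes at 10 CPM or more, and of the box H/ACA RNA Snora81, which had the smallest adjusted p, show how short the counted transcripts are, 65 to 69 bases for the tRNAs and 178 for Snora81 (GENCODE M21, GRCm38, plus strand; chromosome M 1025 to 1093, 7700 to 7764, 11546 to 11612 and 4950 to 5016, and chr16:23110756-23110933). Capitals mark the anticodon of each tRNA and the ATA box 3 bases before the 3′ end of Snora81.
mt-Tv (valine): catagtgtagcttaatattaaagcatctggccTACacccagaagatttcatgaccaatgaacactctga
mt-Tk (lysine): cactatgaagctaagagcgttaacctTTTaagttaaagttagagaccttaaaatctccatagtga
mt-Th (histidine): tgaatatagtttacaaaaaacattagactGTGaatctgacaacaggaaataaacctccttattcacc
mt-Tw (tryptophan): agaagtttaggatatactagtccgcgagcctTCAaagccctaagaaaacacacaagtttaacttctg
Snora81: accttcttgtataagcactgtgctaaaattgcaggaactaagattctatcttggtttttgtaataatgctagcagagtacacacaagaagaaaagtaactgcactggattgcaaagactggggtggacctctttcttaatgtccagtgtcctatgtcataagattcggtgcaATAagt
mt-Tv had 35.1, 17.3 and 31.3 CPM at day 6, against 0.985, 0.820, 1.44 and 0.779 CPM at day 3 (4.72 ± 0.32, edgeR adjusted p = 0.000389). Snora81 had 22.3, 22.5 and 23.7 CPM at day 6, against 2.06, 2.87, 2.60 and 2.14 CPM at day 3 (3.18 ± 0.17, adjusted p = 0.000275). Rnu11 and Rnu12, the U11 and U12 RNAs of the minor spliceosome, rose by 3.52 ± 0.41 and 3.23 ± 0.36 on the log2 scale. The day 6 and day 3 libraries did not overlap for any of these RNAs. Small nucleolar RNAs lie in introns of host genes and mitochondrial tRNAs between other genes of 1 long transcript, so reads of the longer precursors cannot be told apart from those of the short RNAs.

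The classes also separated the days as shares of all counts. Small nucleolar RNAs took 0.134%, 0.0935% and 0.0875% at day 6, against 0.0302%, 0.0348%, 0.0224% and 0.0204% at day 3, and mitochondrial tRNAs 0.0371%, 0.0264% and 0.0305% at day 6, against 0.0109%, 0.0154%, 0.0186% and 0.0153% at day 3. In untransduced fibroblasts small nucleolar RNAs took 0.0959% to 0.161%, and at day 9 0.0949% to 0.131%, so each day 3 library lay below every library of the other 3 groups. Mitochondrial tRNAs took 0.0145% to 0.0288% in untransduced fibroblasts, which overlaps day 3, and 0.0285% to 0.0532% at day 9. Messages of ribosomal proteins ran the other way: they took 1.98% to 2.11% at day 6, against 2.84% to 3.3% at day 3, and all 81 tested had a log2 fold change below 0, with a median of -0.65. Of these 74 had an adjusted p under 0.05 and 2 also a 2-fold change. RNA lengths and small RNA recovery in each preparation are not given in the sources used here, and their part in these differences was not tested.

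**Figure D4:**
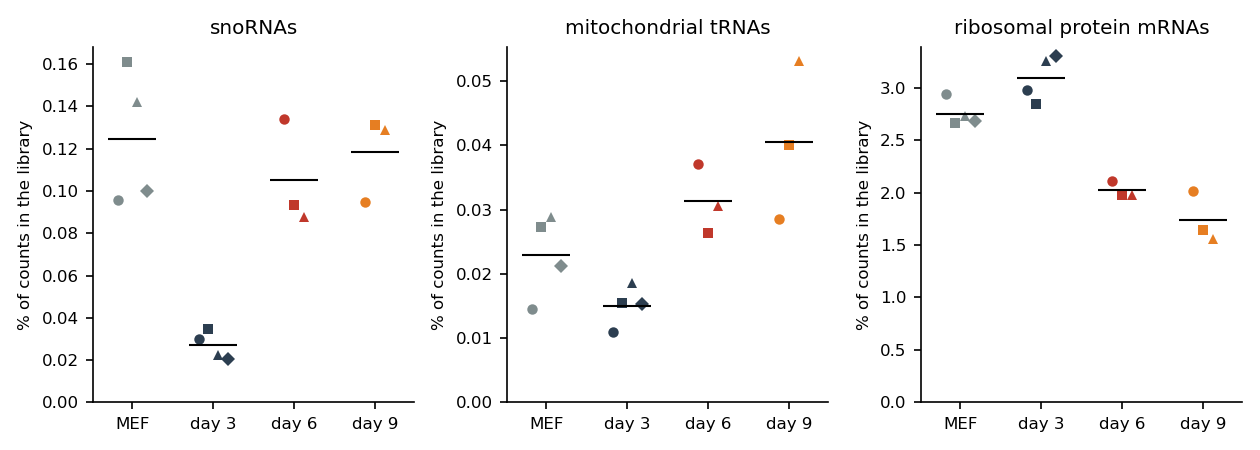
Share of each library's counts (percent) taken by small nucleolar RNAs, mitochondrial tRNAs and ribosomal protein messages in untransduced fibroblasts and in double positive cells at days 3, 6 and 9. Day 3 libraries hold 0.0204% to 0.0348% small nucleolar RNA, below the other 3 groups.

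The same days in the CD45 gate, in other libraries of the same line, gave 179 genes that rose (1.13%) and 170 that fell (1.08%) of 15786 tested. Of the 349 double positive risers 29.2% rose there, which made 57% of the 179, and of the 177 fallers 77 fell, 43.5% of the 177 and 45.3% of the 170; 0 were called in the opposite direction. Sirpb1c (4.27 ± 0.71, edgeR adjusted p = 0.0122), Pira2 (3.03 ± 0.57, adjusted p = 0.0187), Cd36 (1.86 ± 0.22, adjusted p = 0.00245), Slitrk4 (-1.82, adjusted p = 0.000599) and Clca3a2 (-2.22, adjusted p = 0.000526) were called there through every omission. Cd209a (2.24, adjusted p = 0.0350) and Klra17 (1.69, adjusted p = 0.0315) were called as well but lost their calls in 7 and 6 of 9 omissions. Clec12a missed the 2-fold threshold at 0.93 (adjusted p = 0.00760), and Clec5a was not called (2.39, adjusted p = 0.0712). Of 11 tested macrophage and monocyte genes 5 rose there, and 4 or 5 did without any 1 library. Mki67 fell in that gate (-2.02, adjusted p = 0.0340), a call lost in 6 of 9 omissions. With it 11 of 20 G2 and M phase genes and 1 of 20 S phase genes fell; the 11 were 1 without day 6 replicate 1, 3 without day 6 replicate 2 or day 3 replicate 2, 4 without day 3 replicate 3 or 4, and 5 without day 3 replicate 5, and 1 in 1 fit over all groups. The S phase count was 3 with DESeq2 or no low-count filter, 2 without day 6 replicate 2 or 3, and 0 without day 3 replicate 5, without day 6 replicate 4 or in 1 fit. Of 15 mitochondrial tRNAs 7 rose, but 1 did without day 3 replicate 1, 2 or 4 2 without day 3 replicate 5 or day 6 replicate 1, and 15 in 1 fit over all groups, and Snora81 was not called (1.84, adjusted p = 0.0534). Of the small nucleolar and Cajal body RNAs 32 rose there, 24.4% of those that passed the filter, with a median of 1.51. The 32 were 18 without day 3 replicate 1, day 3 replicate 2 or day 6 replicate 3, and 21 without day 3 replicate 4. With DESeq2 they were 51, in 1 fit over all groups 77 and with no low-count filter 97. Small nucleolar RNAs took 0.0861% to 0.165% of counts at day 6 in that gate, against 0.0213% to 0.0738% at day 3, with no overlap. Calls there ranged from 97 to 242 higher, fewest without day 3 replicate 2 and most without day 6 replicate 4, and from 89 to 260 lower, fewest without day 6 replicate 1 and most without day 6 replicate 4.

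**Figure D5:**
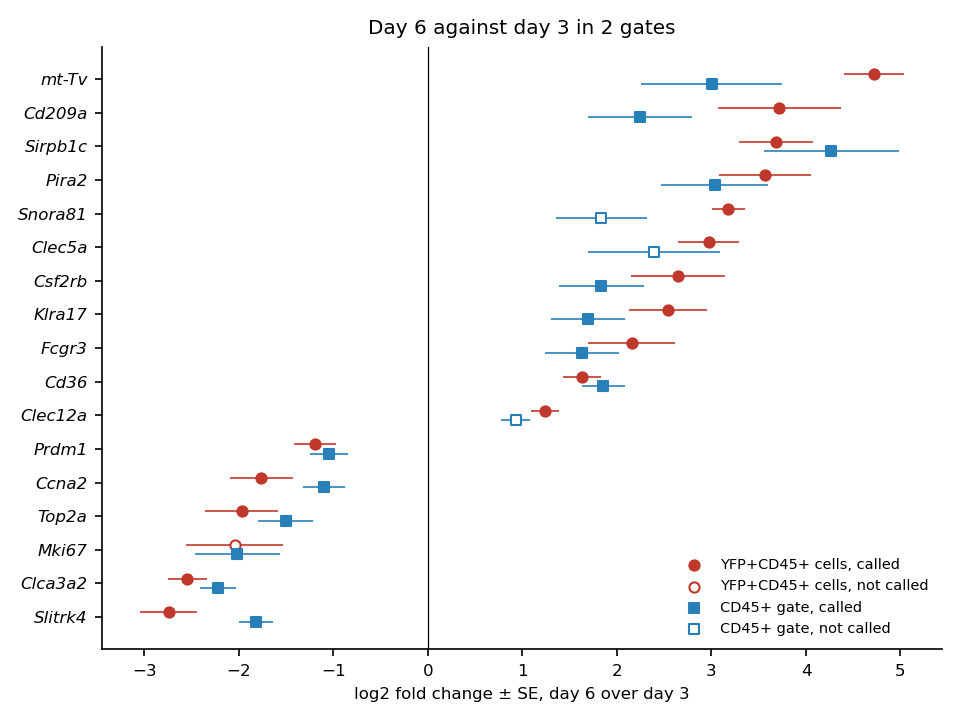
Log2 fold change of day 6 over day 3 with standard errors for named genes in double positive cells and in the CD45 gate. Sirpb1c is at 3.68 in double positive cells and 4.27 in the CD45 gate, and Slitrk4 at -2.74 in double positive cells and -1.82 in the CD45 gate.

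Cells sorted on YFP alone gave 64 genes that rose (0.406%) and 5 that fell (0.0317%) of 15750 tested. Of the 349 double positive risers 53 rose there (15.2% of the 349 and 82.8% of the 64), and of the 177 fallers 0 fell. In a fit of protein-coding genes only, none was called in this gate. Small nucleolar RNAs took 0.0528% to 0.127% of counts at day 6 in this gate, against 0.0244% to 0.0502% at day 3. Leaving out 1 library moved 0.406% to between 0%, without day 3 replicate 2, 3 or 4 or day 6 replicate 2, and 0.78%, without day 6 replicate 1, and the 5 to between 0 and 9. In that gate Ptprc was at 34.2 CPM in day 3 replicate 5, against 0.50 to 0.90 CPM in the other day 3 libraries.

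The same cocktail in the C9a line, homozygous for Clec9a(Cre/Cre) and for a red reporter, Rosa26(tdTomato/tdTomato), was compared through the difference of the 2 changes from day 3 to day 6. edgeR called 0 of 17277 genes as different between the lines, with 1175 at an unadjusted p under 0.05; DESeq2 called 26 higher and 4 lower in hCD2.SII. Day 3 replicate 2 of the C9a line stood apart, with Ptprc at 1.52 CPM, against 114.8 CPM or more in the other day 3 libraries, and without it edgeR again called 0, with 813 at an unadjusted p under 0.05. In that line Sirpb1c had 7.77, 9.99, 8.90 and 7.15 CPM at day 6, against 1.47, 2.09, 1.78 and 0.834 CPM at day 3, and Pira2 had 37.96, 31.12, 45.29 and 45.82 CPM at day 6, against 10.9, 2.28, 9.53 and 5.14 CPM at day 3. Both genes were higher in every day 6 library of the C9a line than in every day 3 library. In the C9a line small nucleolar RNAs took 0.0452% to 0.0872% of counts at day 6, against 0.0372% to 0.142% at day 3, which overlap. The difference in change of mitochondrial tRNAs, hCD2.SII minus C9a.SII, was above 0 for all 18 tested, with a median of 4.16. Without C9a day 3 replicate 2 their median was 2.95. edgeR called 0 of these tRNAs, DESeq2 1, and 1 edgeR fit over all groups of both lines 6. The difference in change of the small nucleolar and Cajal body RNAs was above 0 for each one tested, with a median of 2.61. Without C9a day 3 replicate 2 it was again above 0 for each, with a median of 1.78. edgeR called 0 of these RNAs in this comparison, DESeq2 called 7, and 1 edgeR fit over all groups of both lines called 16.

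Later and reference cells place the receptors. At day 9 Sirpb1c had 12.8, 93.45 and 83.75 CPM, Pira2 30.1, 206 and 212 CPM, and Clec5a 2.89, 37.8 and 22.4 CPM, with replicate 1 the low one for each gene and for Ptprc. Cd209a was at 5.06 ± 1.67 CPM at day 9 (SD, n = 3), close to the day 6 mean of 4.53 CPM, and far under the 93.97 ± 45.68 CPM of splenic plasmacytoid dendritic cells (SD, n = 5). Those cells had 113.4 ± 42.2 CPM of Klra17 and 2110 ± 907 CPM of Mpeg1, above day 6, but 0.458 ± 0.526 CPM of Sirpb1c and 7.60 ± 5.91 CPM of Pira2, below day 6. Untransduced fibroblasts had 0 CPM of Pira2 and 0.106 ± 0.0813 CPM of Sirpb1c (SD, n = 4). For Mki67 the fibroblasts stood at 209 ± 30.6 CPM (SD, n = 4), above both days of the transduced cells, and day 9 at 17.8 ± 19.1 CPM (SD, n = 3).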

How the data were processed

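Libraries were made from total RNA of 5000 sorted cells with a stranded total RNA kit and 13 to 14 PCR cycles, per the labels' protocols. The authors deposited raw counts per Ensembl gene; the submitters' processing notes name mm10, STAR 2.7.9a and Salmon 1.10.1 with no roles, and the counting and strand settings are not given in the sources used here. Of 57010 identifiers 52029 were named through GENCODE M21 and reference tables; the other 4981 stayed in the fits. Counts were tested in R 4.3.3 with edgeR 4.0.16 (filterByExpr, TMM, robust quasi-likelihood fit, Benjamini-Hochberg), on the groups compared alone, after the fit was tested on simulated data; the standard error is the log2 fold change over the root of F. DESeq2 1.42.0, other scalings and filters, a replicate block and each library left out were alternatives. No 2 libraries were copies. Totals were 5687181 to 11171193 counts, and 3 counts are worth 0.269 to 0.528 CPM; this covers counting error only, since no molecular identifiers are given. Genes were named from 40 lists by a rule: the factors and sort markers, per list up to 4 called members with the largest change whose groups do not overlap, a called member moving the opposite way, the uncalled member of highest level, and the 10 highest and lowest called genes of at least 10 CPM; 15 protein-coding genes in each direction were added after their values were seen. Members, lists and tests were chosen with earlier results of these data known. The result for 1 gene is not reported here.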

Additional observations from a re-analysis of the deposited data

Results flagged for a closer look

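Among groups of 4 or 5 libraries examined gene by gene, 9 held 1 library far from the others by Dixon's criterion, 8.57% of those examined; chance alone marks about 1 group in 20. In day 6 CD45-gated cells replicate 4 was the highest library for 4 genes. There Pira2 reached 91.1 CPM (others 23.7 to 34.3), Clec5a 10.0 CPM (others 1.4997 to 2.379), Klra17 14.5 CPM (others 10.1 to 10.7) and mt-Tv 62.1 CPM (others 15.2 to 19.3). In day 3 CD45-gated cells replicate 5 was the highest for Prdm1 at 51.9 CPM (others 31.8 to 36.1), Top2a at 96.3 CPM (others 43.7 to 54.3) and Mki67 at 225 CPM (others 70.7 to 101.4). In day 3 double positive cells Irf4 was at 1.07 CPM in replicate 1 (others 0.410 to 0.487) and Egr1 at 23.8 CPM in replicate 4 (others 20.1 to 20.5).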

How the results depend on the processing

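In double positive cells 2.21% of tested genes rose and 1.12% fell; leaving out each library gave 1.28% to 2.53% and 0.303% to 1.2%. Risers were 2.82% in 1 fit over all groups of the line, 1.88% (788 genes) with no low-count filter, 0.936% when held to 10 CPM or more and 0.949% of protein-coding genes alone; the last 2 were chosen after seeing the data and leave out genes by construction. Fallers were 1.82% with DESeq2 and 0.862% (362 genes) with no filter. Libraries of the same replicate number were not the most alike across days (correlations of deviations from the group mean 0.149, 0.002 and 0.130). Day 6 replicate 1 had 0.149, 0.263, -0.235 and -0.19 with day 3 replicates 1 to 4. Day 6 replicate 3 had -0.126, -0.193, 0.130 and 0.203 with the same libraries. Whether libraries share a batch across days was not tested. The fit with replicate number as a block kept only replicate numbers found at both days. It left out day 3 replicate 4 in double positive cells and day 3 replicate 5 in the CD45 and YFP gates. Leaving out day 3 replicate 4 without a block lost 23 of the 58 named calls. With the block 0.943% rose and 0.494% fell in double positive cells, and 25 of the 58 named calls were lost. Among them were Sirpb1c (edgeR adjusted p = 0.0561), Pira2 (0.0769) and Klra17 (0.0872). With the block 2 myeloid receptors, 1 macrophage gene, 2 cytokines and 32 small nucleolar and Cajal body RNAs rose, and 0 of the G2 and M phase and 3 of the S phase genes fell; in the CD45 gate 6 G2 and M phase genes fell. In the CD45 gate, with 1.13% and 1.08%, omissions gave 0.622% to 1.5% and 0.548% to 1.62%. Risers there were 1.41% in 1 fit, 1.72% with DESeq2, 0.971% (420 genes) with no filter, 0.538% at 10 CPM or more and 0.851% of protein-coding genes; fallers were 0.475% in 1 fit, 0.481% at 10 CPM or more and 0.646% with the block. In the YFP gate, with 0.406% and 0.0317%, omissions gave 0% to 0.78% and 0% to 0.0564%. Risers and fallers there were 1.25% and 0.0405% in 1 fit, 1.27% and 0.0698% with DESeq2, 0.51% and 0.0256% with no filter, 0.216% and 0.00635% at 10 CPM or more, 0.11% and 0.00645% without unnamed identifiers, and 0% of either with the block or with protein-coding genes only. The difference between lines had 0% in each direction in every omission. For it 1 fit over all groups of both lines called 0.235% higher and 0.0141% lower, DESeq2 0.15% and 0.0232%, and no filter 0.0236% and 0.00645%. Of 71 genes followed in double positive cells 26 kept their call or lack of one and their direction under each setting. Itgax, at 0.10, ranged from -0.60 without day 6 replicate 3 to 0.47 without day 3 replicate 4, and was -0.14 without day 3 replicate 1 and -0.07 without day 3 replicate 2. Ptprc ranged from -0.38 without day 6 replicate 3 to 0.016 without day 6 replicate 1; none of these was called. The causes of these shifts were not tested.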
